A study of Mus musculus with 6 samples.

Results

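The genes of the AP-1 and BACH transcription factors were followed here in an ATAC-seq comparison of MLL-ENL–transformed mouse fetal liver cells with and without C/EBPα and C/EBPβ. The 10 genes were Fos, Fosb, Fosl1, Fosl2, Jun, Junb, Jund, Batf, Batf3 and Bach2. A region of the authors' table was counted to a gene if it overlapped the gene body (GENCODE M21, mm10) extended by 50 kb on each side. Of the 10016 listed regions, 16 lay at 7 of the 10 genes, and Junb, Jund and Batf3 had 0.

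MLL-ENL is a leukaemia fusion oncogene that immortalises myeloid progenitors, and ATAC-seq counts the fragments that the Tn5 transposase cuts from open chromatin. The WT cells are labelled wild-type with no vector named; per the study they came from conditional mice with floxed Cebp alleles (Cebpb fl/fl, or Cebpa fl/fl and Cebpb fl/fl) that had not been deleted, whereas the dKO cells carried Cebpa KO and Cebpb KO and expressed GFP. All cells were kept in IL-3 at 10 ng/ml. The study describes the dKO lines as rare clones, made with Cre recombinase, that outlived the compound deletion and expressed the related factor C/EBPε, so genotype, vector and clone cannot be told apart. Another group, dKO cells with GFP and the rat C/EBPβ isoform LAP*, was not analysed here.

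AP-1 is a dimer of basic leucine zipper proteins, usually a FOS with a JUN protein, that binds a short palindromic DNA element and activates genes downstream of growth factor and stress signals. BATF and BATF3 pair with JUN proteins but lack a classical activation domain. BACH2 pairs with small MAF proteins and represses genes through closely related elements. In haematopoietic cells AP-1 is known for its part in monocyte and macrophage gene expression, and BACH2 for its part in lymphoid cells.

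The values are the authors' means of normalised reads over the 2 libraries of each group, on the log2 scale. They carry no error, because no value per library was in the table. The table lists only regions past the authors' corrected P-value threshold of 0.05, and "higher" and "lower" refer to dKO against WT among these regions. A 95% counting interval, worked out from the approximate number of reads behind each mean, stands beside the fold changes. The interval reflects counting error and not the spread between libraries, and reads copied by PCR would make it too narrow. Regions are named by gene and by the distance of the region's centre from the gene start, with minus for upstream.

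The 16 regions fell into 13 that were higher and 3 that were lower in dKO cells. Thus 81.2% were higher, against 60.3% of all listed regions, and the rest were lower, against 39.7% of all listed regions. Every listed region at a FOS gene was higher (9 of 9), as were both regions at Batf, although 3 of the FOS regions, at Fosb and Fosl2, turn below 0 once the median change of all listed regions is subtracted. After that subtraction the 16 regions split into 9 higher and 7 lower, where all listed regions split evenly by construction. The single region at Jun was lower, and Bach2 had 2 regions lower at its 5′ end and 2 higher at its 3′ end. Changes of at least 2-fold upwards were found in 9 regions, where the share of all listed regions was 49.6%. Changes of at least 2-fold downwards were found in 2 regions, where the share of all listed regions was 35.9%. The median change was 1.16 on the log2 scale, compared with 0.98 over all listed regions. It was 0.63, below that value, for the 7 regions left with a window of 10 kb and for the 5 left when regions were counted to the nearest start of any gene. Without regions under the lower quartile of mean level it was 0.96 for the 12 left, with the 0.98 not filtered likewise. With 16 regions at 7 genes and no value per library, these shares are a description of the listed regions and were not tested. Fos, Jun and Batf had no region left under either choice.

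The sequences of the regions with the largest change at each gene apart from Bach2 are shown, together with the region over the Fosl2 start, so that the elements in them can be read beside the values. They are the plus strand of mm10 (GRCm38.p6) from 5′ to 3′, up to 300 bases about the centre. Capitals mark matches, on either strand, to TGACTCA (AP-1), TGACGTCA (the cyclic AMP response element, CRE), TTACNNAA or TTGCNNAA (C/EBP), GAGGAAGT (PU.1) or AACCACA (RUNX). None of the matches in the 16 regions overlapped another. The first set is from the FOS genes.
Fos −36.2 kb (chr12:85437551-85437850): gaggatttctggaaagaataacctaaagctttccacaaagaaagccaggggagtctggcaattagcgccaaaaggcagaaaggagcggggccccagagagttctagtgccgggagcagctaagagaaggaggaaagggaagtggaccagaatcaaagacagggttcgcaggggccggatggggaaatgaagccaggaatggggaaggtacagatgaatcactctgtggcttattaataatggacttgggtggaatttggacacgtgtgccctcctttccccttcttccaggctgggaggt
Fosb −11.6 kb (chr7:19321560-19321785): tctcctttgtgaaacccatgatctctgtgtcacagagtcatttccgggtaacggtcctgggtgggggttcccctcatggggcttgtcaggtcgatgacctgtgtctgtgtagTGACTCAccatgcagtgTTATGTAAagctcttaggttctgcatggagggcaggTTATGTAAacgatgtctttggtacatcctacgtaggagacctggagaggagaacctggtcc
Fosl1 +1.3 kb (chr19:5448656-5448955): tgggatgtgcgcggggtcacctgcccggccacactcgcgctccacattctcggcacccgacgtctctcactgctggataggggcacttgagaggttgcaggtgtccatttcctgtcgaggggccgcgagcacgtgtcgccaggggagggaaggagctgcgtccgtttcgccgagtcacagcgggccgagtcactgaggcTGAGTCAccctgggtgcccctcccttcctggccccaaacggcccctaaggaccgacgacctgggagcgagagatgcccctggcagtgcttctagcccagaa
Fosl2 −0.3 kb (chr5:32135363-32135662): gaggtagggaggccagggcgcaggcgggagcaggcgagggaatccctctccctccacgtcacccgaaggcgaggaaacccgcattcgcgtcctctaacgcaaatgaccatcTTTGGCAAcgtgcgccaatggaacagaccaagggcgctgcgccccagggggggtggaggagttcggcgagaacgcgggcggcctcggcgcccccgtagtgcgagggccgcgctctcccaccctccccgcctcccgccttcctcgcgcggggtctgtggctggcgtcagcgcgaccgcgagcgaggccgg
Fosl2 +56.4 kb (chr5:32192085-32192384): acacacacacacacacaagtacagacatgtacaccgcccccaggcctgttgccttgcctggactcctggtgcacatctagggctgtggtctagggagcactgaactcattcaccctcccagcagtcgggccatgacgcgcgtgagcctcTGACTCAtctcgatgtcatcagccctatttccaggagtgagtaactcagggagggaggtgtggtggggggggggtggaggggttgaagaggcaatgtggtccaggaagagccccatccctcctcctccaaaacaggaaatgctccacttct
The Fosb −11.6 kb stretch holds an AP-1 match 2 bp from the region's centre and 2 C/EBP matches, TTATGTAA, at 20 and 56 bp. The Fosl2 +56.4 kb stretch has its AP-1 match 2 bp from the centre, and the Fosl1 +1.3 kb stretch has one 52 bp from it. The Fos −36.2 kb stretch, with the largest rise, holds no match to any of the words.

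The second set is from Jun and Batf, with the site in the Bach2 start region, where 30 bases about the match are given.
Jun −23.5 kb (chr4:95075620-95075919): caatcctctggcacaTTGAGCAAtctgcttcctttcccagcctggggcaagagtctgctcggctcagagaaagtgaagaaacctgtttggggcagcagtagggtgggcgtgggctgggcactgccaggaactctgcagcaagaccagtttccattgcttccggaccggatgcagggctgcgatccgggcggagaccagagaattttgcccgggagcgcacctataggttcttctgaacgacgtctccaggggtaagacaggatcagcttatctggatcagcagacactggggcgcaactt
Batf +72.3 kb (chr12:85758846-85759145): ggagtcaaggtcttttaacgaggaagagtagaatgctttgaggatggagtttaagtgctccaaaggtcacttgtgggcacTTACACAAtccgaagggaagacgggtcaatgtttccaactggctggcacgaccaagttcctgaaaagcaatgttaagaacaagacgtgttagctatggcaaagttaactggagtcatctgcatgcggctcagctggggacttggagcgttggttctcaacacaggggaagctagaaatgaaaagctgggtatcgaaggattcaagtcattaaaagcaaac
Bach2 −0.1 kb (chr4:32238676-32238705): tggggagcgggTGACGTCAgcgccgaatgt
The Bach2 stretch holds TGACGTCA, 20 bp from the centre of the region. This word was in the central 200 bp of 1 of the 16 regions, and in 0.459% of all listed regions. The C/EBP match in the Batf stretch, TTACACAA, lies −66 bp from the centre.

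**Figure D1:**
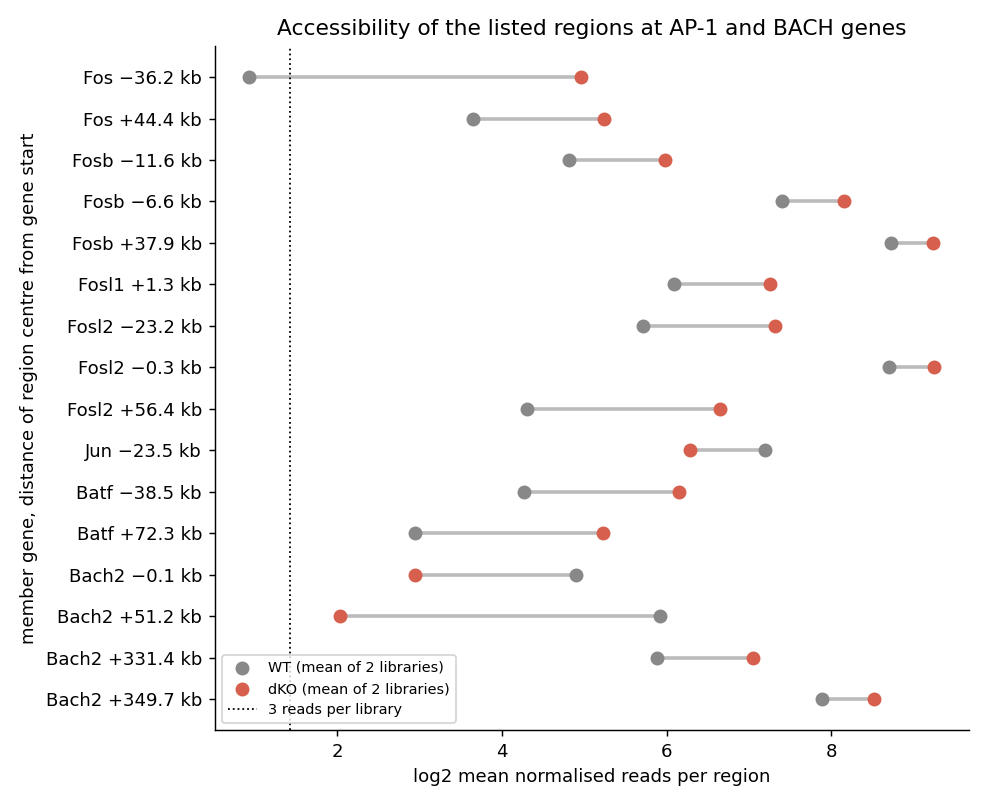
Level of each of the 16 listed regions in WT (grey) and dKO (red) cells, as the authors' log2 mean of normalised reads per region; each row is a region, named by gene and distance from its start, and the dotted line is the level of 3 reads per library (1.43). Before any centring, the dKO point lies to the right of the WT point in 13 rows and to the left in 3, at Jun and at the 5′ end of Bach2; Fos −36.2 kb has the WT point under the line.

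Fos encodes the inducible c-FOS subunit. At Fos −36.2 kb (chr12:85437547-85437855, intergenic) the log2 level was 0.93 in WT and 4.96 in dKO. The change of 4.03 was the largest rise at the 10 genes, and 96.3% of all listed regions had a smaller change in size. The WT level rested on about 4 reads in both libraries together and lay under the level of 3 reads per library, whereas about 69 reads lay behind the dKO level. The ratio was 16.3-fold, with a counting interval of 6.44 to 65.1. The nearest annotated start was that of Gm40477, 1298 bp away, so the region may belong to that gene.

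At Fos +44.4 kb (chr12:85518068-85518493, intergenic) the log2 level was 3.65 in WT and 5.24 in dKO, which is 3.01-fold higher (1.94 to 4.78). The nearest annotated start was that of Gm32296, 11105 bp away, so this region may also belong to another gene. No region within 1 kb of an annotated Fos start was listed. A start that is not listed may be open in both groups, and its change was not analysed here.

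Fosb encodes another FOS protein with a strong activation domain, and its 3 regions rose by smaller amounts. Fosb −6.6 kb (chr7:19316331-19317010, intergenic), the nearest to the gene, had a log2 level of 7.40 in WT and 8.15 in dKO, or 1.68-fold higher (1.48 to 1.91). Fosb −11.6 kb (chr7:19321560-19321785, in an intron of the gene D830036C21Rik) had 4.81 in WT and 5.98 in dKO, or 2.25-fold higher (1.66 to 3.10). This narrower region lay 4550 bp from the former, and the pair rose together.

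The last region, Fosb +37.9 kb (chr7:19271497-19272738), covers the start of Vasp, which encodes a regulator of actin filaments, and so may report on that gene. Its log2 level was 8.72 in WT and 9.24 in dKO, a change of 0.52. It was among the most open regions in the table, above 98.8% of the listed regions in WT, and its relative change was among the smallest.

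Fosl1 encodes FRA-1, a FOS protein without the strong activation domain of c-FOS. Its single listed region, Fosl1 +1.3 kb (chr19:5448619-5448993), lay in the intron, 698 bp from an annotated start of the gene. The log2 level was 6.09 in WT and 7.25 in dKO, or 2.23-fold higher (1.84 to 2.73). The region stood alone, since the next listed region was 275494 bp away.

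Fosl2 encodes FRA-2, and was one of the 3 genes with a listed region within 1 kb of an annotated start, along with Fosl1 and Bach2. Fosl2 −0.3 kb (chr5:32134889-32136137) covers the start and part of the first exon. Its log2 level was 8.70 in WT and 9.25 in dKO, or 1.46-fold higher (1.35 to 1.59). The change at the start was thus present but small.

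The distal regions counted to Fosl2 changed more, but they may belong to other genes. The nearest annotated starts were those of Gm10463 for Fosl2 −23.2 kb (20221 bp) and Gm9555 for Fosl2 +56.4 kb (6537 bp). Fosl2 −23.2 kb (chr5:32112254-32112947, intergenic) went from a log2 level of 5.71 to 7.32, or 3.05-fold higher (2.47 to 3.81). Fosl2 +56.4 kb (chr5:32192034-32192436, intergenic) went from 4.31 to 6.65, or 5.06-fold higher (3.65 to 7.17). The counting intervals of these distal regions overlapped each other, and that of the start region lay below both.

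Jun encodes c-JUN, the usual partner of the FOS proteins. Its only listed region, Jun −23.5 kb (chr4:95075460-95076080), went down from a log2 level of 7.20 in WT to 6.28 in dKO, or 1.89-fold lower (1.57 to 2.29). It covers the start of Junos, a noncoding gene upstream of Jun, and may belong to that gene. It holds 2 C/EBP matches, TTGAGCAA and TTGCTAAA, both outside the central 200 bp, and no AP-1 match.

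For the other JUN genes the table gave nothing within the windows. The nearest listed region to Junb, which encodes a JUN protein with weaker activating capacity, was 126.4 kb away. It was higher in dKO, by 0.72 on the log2 scale, but lay nearer to another gene. Jund encodes the more constitutively expressed JUN protein and had no listed region within 50 kb.

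Batf encodes a small zipper protein that binds with JUN and IRF factors at composite elements. Batf −38.5 kb (chr12:85647951-85648354, intergenic) rose from a log2 level of 4.27 in WT to 6.15 in dKO, or 3.68-fold (2.61 to 5.28). Its nearest annotated start was that of Gm33312, 14088 bp away, so it may belong to another gene. Batf +72.3 kb (chr12:85758802-85759190, in an intron of Flvcr2, which encodes a membrane transporter) rose from 2.95 to 5.23, or 4.86-fold (2.87 to 8.78). The counting intervals of the pair overlapped, and whether the rises differ was not tested. The former region holds the only PU.1 match in a central 200 bp, at −11 bp.

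Batf3, known for its part in dendritic cells, had no listed region within 50 kb. The nearest one was 85.2 kb downstream, towards Atf3, with a log2 level of 3.60 in WT and 5.27 in dKO.

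Within the windows of 50 kb and before any centring, only Bach2 of the 10 genes had listed regions in both directions. The lower and higher regions were ordered along the gene. Bach2 −0.1 kb (chr4:32238521-32238819) overlaps the annotated start and had a log2 level of 4.90 in WT and 2.95 in dKO, or 3.86-fold lower (2.25 to 7.06). About 66 reads in WT and 17 in dKO lay behind these means. Bach2 +51.2 kb (chr4:32289820-32290203) lies in an intron by GENCODE M21, although a predicted RefSeq transcript has an exon over it. It had 5.92 in WT and 2.03 in dKO, or 14.8-fold lower (7.61 to 33.3), with about 134 reads in WT and 9 in dKO.

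The loss at Bach2 +51.2 kb was the largest among the 16 regions, and 95.6% of all listed regions had a smaller change in size. The 3′ part of the gene went the other way in the deposited values, although subtracting the median of all listed regions leaves 0.18 at Bach2 +331.4 kb and turns Bach2 +349.7 kb to −0.35. Bach2 +331.4 kb (chr4:32569994-32570353, intron, within the antisense gene Bach2os) had 5.89 in WT and 7.05 in dKO, or 2.23-fold higher (1.81 to 2.76). Bach2 +349.7 kb (chr4:32588115-32588893), just past the 3′ end, had 7.89 in WT and 8.52 in dKO, or 1.55-fold higher (1.39 to 1.73).

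Bach2 +331.4 kb holds an AP-1 match 64 bp from its centre and 2 C/EBP matches, TTTGGCAA and TTGTGCAA, at −21 and 12 bp. Bach2 +51.2 kb holds none of the words. The window of Bach2 is 447305 bp long, because the gene itself is, compared with 101668 bp for Jund. A count of regions per gene is thus not comparable between Bach2 and the other genes.

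**Figure D2:**
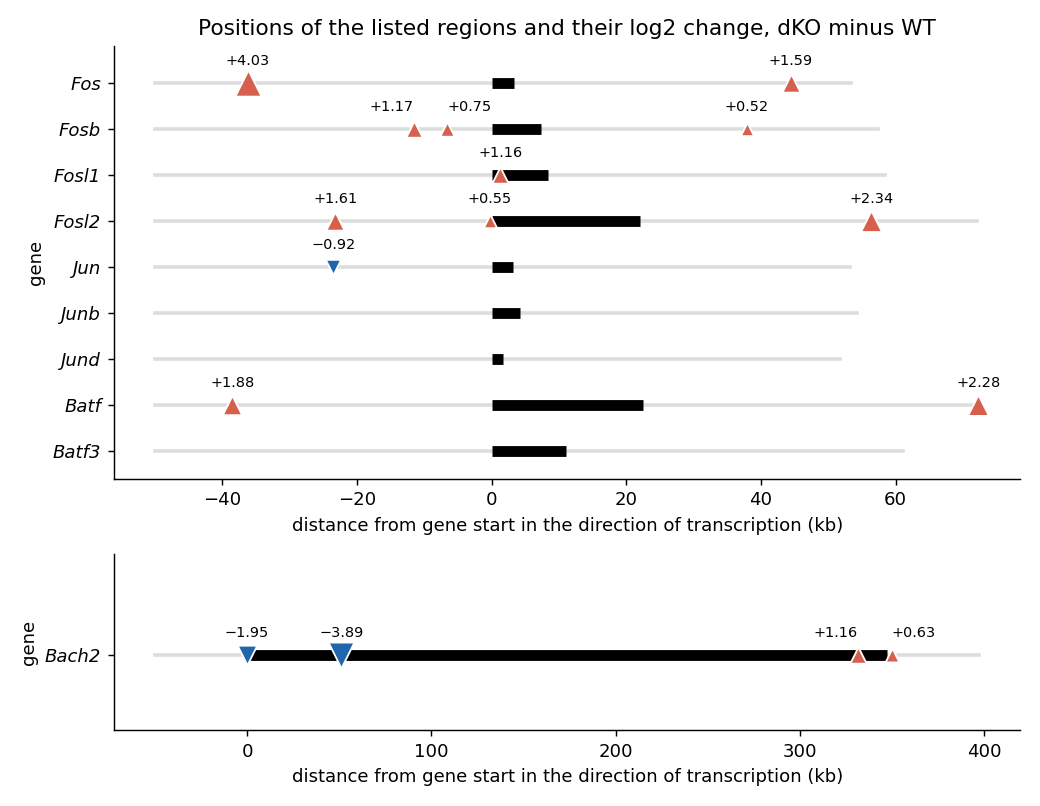
Position of the 16 listed regions along each gene, with distance from the gene start in kb on the x axis; the black bar is the gene body, the grey line the window of 50 kb on each side, and each triangle a region, with its log2 change (dKO minus WT) printed above it and its size scaled to that change (red, higher; blue, lower). The blue triangles are at Jun and at the 5′ end of Bach2, and Junb, Jund and Batf3 have empty windows.

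Per kb of region, the WT level ran from 6.17 normalised reads at Fos −36.2 kb to 340 at Fosb +37.9 kb. In dKO it ran from 10.6 at Bach2 +51.2 kb to 487 at Fosb +37.9 kb and Fosl2 −0.3 kb. The FOS regions with the lowest WT level per kb, Fos −36.2 kb and Fos +44.4 kb, reached 101 and 88.7 reads per kb in dKO. Both were below the WT level of the other FOS regions except Fosl2 −23.2 kb (75.4) and Fosl2 +56.4 kb (49.2).

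The size of the change went with the WT level. The 5 regions with a WT log2 level over 7 all changed by less than 1 on the log2 scale, the largest being 0.92 at Jun −23.5 kb. The other 11 all changed by 1.16 or more. Over all listed regions the share with a change under 1 was 756 of the 1260 above that level and 693 of the 8756 below it (7.91%). The pattern is thus shared with the table as a whole, and the part of the authors' threshold in it was not tested.

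**Figure D3:**
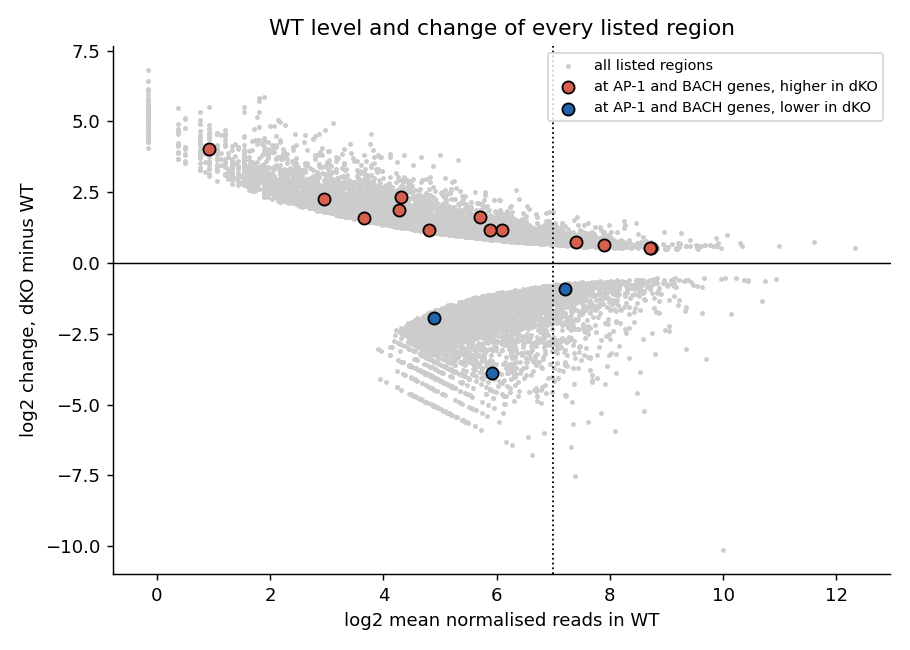
Log2 change (dKO minus WT, y axis) against the log2 mean of normalised reads in WT (x axis) for all 10016 listed regions (grey) and for the 16 at AP-1 and BACH genes (red, higher; blue, lower); the dotted line is a WT level of 7. The empty band about 0 is where regions did not pass the authors' threshold, and the red points run from upper left to lower right along its upper edge.

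The regions were also set apart by their distance from gene starts, as a description. Of the 16 regions, 5 lay within 1 kb of the start of any gene, and of these 3 were higher and 2 lower, with a median size of change of 0.92 regardless of direction. Of the 11 farther away, 10 were higher and 1 lower, with a median size of 1.61. Over all listed regions the median sizes were 1.45 for the 1912 within 1 kb of a start, 57.1% of them higher, and 1.73 for the 8104 farther away, 61.0% of them higher. Bach2 −0.1 kb, at a start, changed by more than the median of the distant regions. The start regions were also more GC-rich, at a median of 65.3% compared with 49.0% over all listed regions.

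The AP-1 word TGACTCA was found in the central 200 bp of 4 of the 16 regions (25.0%), compared with 17.9% of all listed regions. All 4 were among the 13 higher regions, at Fosb, Fosl1, Fosl2 and Bach2, and the 3 lower regions had 0. Among all listed regions the word was in 26.6% of the higher and 4.65% of the lower ones, and the 4 of 13 at these genes are to be read against the former share. Over whole regions it was in 7 of the 13 higher regions (0 of the 3 lower), which added Fosb −6.6 kb, Fosb +37.9 kb and Fosl2 −0.3 kb. Over whole regions the shares of all listed regions were 36.1% of the higher and 8.89% of the lower ones.

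The C/EBP word was in the central 200 bp of 5 of the 16 regions (31.2%), compared with 28.3% of all listed regions. All 5 were higher in dKO. Over all listed regions the word was more frequent in the lower regions (40.8%) than in the higher ones (20.1%), and the few lower regions at these genes do not allow the same comparison. The PU.1 word was in 1 region and the RUNX word in 0, where the shares of all listed regions were 9.21% and 11.9%. Over whole regions the RUNX word was in 3 of the 16 (18.8%), and in 19.3% of all listed regions. The C/EBP word was then in 7 of the 16 (43.8%), 6 higher and 1, at Jun, lower, and in 42.9% of all listed regions.

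Many genes had a listed region. Of 21755 protein-coding genes, 10323 (47.5%) had at least 1 listed region in a window drawn the same way, where one region may count for several genes. Of the 10 AP-1 and BACH genes, 7 had one. Of the 4878 genes with at least 2 regions, 42.3% had only higher ones. This was the case for 4 of the 5 AP-1 and BACH genes with at least 2 regions, namely Fos, Fosb, Fosl2 and Batf. These counts are before any centring. Once the median change of all listed regions is subtracted, Fosb and Fosl2 have lower regions as well, and the 42.3% was not recomputed.

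Other genes of the pathway were taken from a list of 33, of which 18 had a listed region counted to them in the same kind of window. A region in several windows, including those of the AP-1 and BACH genes, was counted only to the gene with the nearest start. A gene without a counted region may thus still have one in its window. They had 29 regions, 22 higher and 7 lower, with a median change of 1.17, where 60.3% of all listed regions were higher. Among 6 further dimer partners of JUN, only Atf3, a stress-induced repressor, had regions counted to it. Its 2 regions were higher by 1.26 and 1.67. Among 5 MAF genes, Maff and Mafk, which encode small MAF partners of BACH2, had 1 region each, with changes of −2.47 and −1.01. Of the 5 CNC genes, Nfe2l2, which encodes the oxidative stress factor NRF2, had one region higher (1.41) and one lower (−0.85), and Bach1 had none.

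Of 7 genes of upstream kinases, 6 had listed regions, with 4 higher and 3 lower. A region at Mapk8, which encodes the JUN kinase JNK1, fell from a log2 level of 5.54 in WT to 0.44 in dKO. This dKO level lies under that of 3 reads per library (1.43), and the region is 24872 bp from the nearest Mapk8 start. A second region of the gene rose by 1.93. The 10 known targets of AP-1 or BACH factors had 16 regions at 8 genes, of which 15 were higher and 1, at Ccnd1, was lower (−2.29), again beside 60.3% higher over all listed regions. Of the 15, a region at Cd44 (0.62) and one at Prdm1 (0.68) changed by less than the median of all listed regions.

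Among the targets, 4 genes had a listed region within 1 kb of a start, and all 4 were higher, where 57.1% of all listed regions within 1 kb of a start were higher. At Plaur, the urokinase receptor gene, the start region went from a log2 level of 6.33 in WT to 7.48 in dKO, and all 4 of its regions were higher, by 1.15 to 2.04. At Mmp9, a matrix metalloproteinase gene, the region near the start went from 4.76 to 6.45. At Nqo1, a quinone reductase gene, it went from 5.93 to 7.03. At Prdm1, which encodes BLIMP-1 and is repressed by BACH2 in B cells, the region near the start went from 7.30 to 7.98, and all 3 regions of the gene were higher. Whether the changes at the targets depend on those at the factor genes was not tested.

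**Figure D4:**
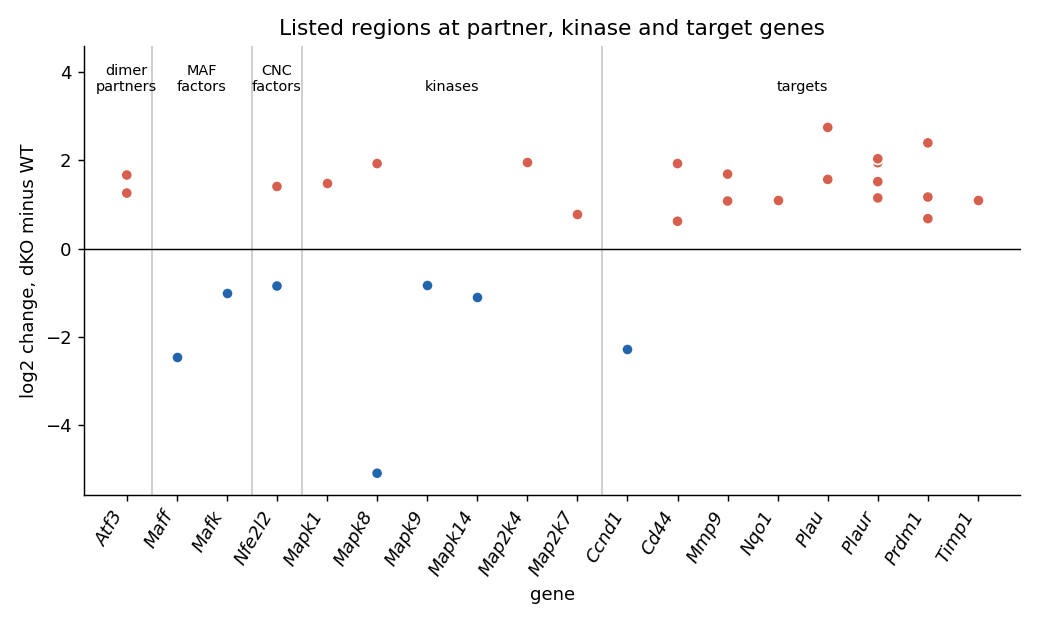
Log2 change (dKO minus WT, y axis) of each listed region at the partner, kinase and target genes (x axis), grouped by list. Each point is a region (red for higher, blue for lower), and genes with no region counted to them are left out. The targets have 15 points above 0 and 1 below, and the MAF factors have 2 points, both below 0.

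The labels were checked at the deleted genes. The region over the Cebpa start had a log2 level of 9.99 in WT and of −0.15, the lowest value in the table, in dKO, which is at least 376-fold lower against 3 reads per library. The region over the Cebpb start went from 8.60 to 3.37. Of 8 myeloid marker genes, 6 had listed regions (Spi1 and Fcgr3 had none). In dKO 14 regions were higher and 1, at Mpo, was lower (−1.13), beside 60.3% higher over all listed regions. Itgam had a region at 7.31 in WT and 8.02 in dKO, and all 3 regions at Csf1r were higher. The study reported the other direction for CD11b, the Itgam protein, and for Csf1r expression, which were both reduced in dKO cells. Of the markers of other cells, 4 regions at the B cell gene Pax5 were lower, with changes of −1.72 to −3.55. The Pax5 regions moved in the same direction as the 5′ regions of Bach2, and a part of differences in cell state or mixture in the results was not tested. No listed region lay at Cd3e, Alb, Klf1 or Hbb-bs. The table lists changed regions only, so it cannot show whether a marker is open in both groups.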

How the data were processed

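ATAC-seq libraries from 50000 sorted cells each were made for 6 samples in 3 groups. Per the study's methods and the submitters' processing notes, reads went through the PiGx pipeline and were mapped to mm10 with Bowtie2, peaks were found with MACS2, and DiffBind 2.14.0 compared the groups, keeping regions with a corrected P-value up to 0.05. Whether duplicates were removed and reads shifted for Tn5 is not given in the sources used here; duplicates, if kept, inflate read numbers unevenly. The deposited values used are log2 group means of normalised reads over the WT and the dKO libraries. The 2 deposited files were identical, and neither had values for dKO-LAP*. The authors' own fold changes, p-values and FDR in the table were not used. Total depth per library was not in the table. All 761 of the 761 low dKO means lay on steps of whole reads (tolerance 0.02, log2), with a lowest value of −0.15. Only 164 of the 736 low WT means lay on the same steps, so numbers of reads in WT are approximate. The dKO step was used for both groups to set the reads behind each mean, their 95% counting intervals and the floor of 3 reads per library (1.43).

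The change is the difference of the group means, dKO minus WT. With group means only, no test between groups was possible. Genes came from GENCODE M21, and sequences from the RefSeq GRCm38.p6 genome, whose chromosomes are those of mm10. Sequence in exons of mRNAs was printed only as a site of 30 bases. The window and motif counts were tested on simulated data. Every gene of the list is named with its start regions and largest changes; pathway genes are named by count and by regions within 1 kb of a start, and further examples were chosen after their values were seen. Some results on marker and neighbouring genes are not reported here. The genes and lists were chosen with earlier results of these data known. Alternatives changed the window, the assignment, the minimum change, the filter on low levels, the pseudocount, the floor, the centring and the stretch searched for motifs. Python 3.11.15, pandas 2.3.3, NumPy 2.4.6, SciPy 1.17.1 and matplotlib 3.10.9 were used.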

Additional observations from a re-analysis of the deposited data

How the results depend on the processing

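The count of 16 regions (13 higher, 3 lower) depended on the window. With 10 kb on each side 7 regions remained, 5 of them higher, and with regions counted to the nearest start of any gene 5 remained, 4 higher and 1 lower. Fos, Jun and Batf had none under either, and the median change was 0.63 under each. With 100 kb there were 21 regions, 17 higher and 4 lower. Without regions under the lower quartile of mean level there were 12, 10 higher and 2 lower, with a median change of 0.96. Subtracting the median change of all listed regions (0.98) gave 7 lower regions, since it turns any rise under that median. It turned Fosb −6.6 kb to −0.23, Fosb +37.9 kb to −0.46, Fosl2 −0.3 kb to −0.43 and Bach2 +349.7 kb to −0.35, and the balance of higher minus lower regions at Fosb to −1. Over whole regions the AP-1 word was in 7 regions, the C/EBP word in 7, the PU.1 word in 2 and the RUNX word in 3. The shares of all listed regions were 25.3%, 42.9%, 13.2% and 19.3%. Without the regions over the Vasp and Junos starts, a choice made after seeing the data, 14 remained, 12 higher and 2 lower. A pseudocount of 1 and the floor of 3 reads left all 16 changes within their counting intervals. No paired analysis was possible because the processed table used here gives one mean per group, and no replicate could be left out either.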

Other observations

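In the flanks between 50 and 100 kb from the AP-1 and BACH genes, 5 further regions were listed. At Fos −88.1 kb the change was 1.29, at Fosl2 −58.4 kb it was 1.61, at Jun −54.1 kb it was 1.04 and at Batf3 +96.4 kb it was 1.67, all on the log2 scale and higher in dKO. The region at Fosb +59.5 kb was lower, with a log2 level of 6.04 in WT and 4.81 in dKO. Jun thus had a higher and a lower region at this range, and Fosb a lower one beside its 3 higher ones. These regions may belong to other genes, and the one at Batf3 +96.4 kb is the same region that was counted to Atf3 among the partner genes.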
